A study of Homo sapiens with 6 samples.

Results

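SOX genes encode transcription factors that share the HMG box, a DNA-binding domain also encoded by the sex-determining gene SRY. Expression of 10 of them, SOX2, SOX4, SOX7, SOX8, SOX9, SOX12, SOX13, SOX15, SOX17 and SOX18, was examined by RNA-seq in 2 human mammary cell lines before and after decitabine (DAC), a cytidine analog that traps DNA methyltransferases and lowers DNA methylation as cells divide. The 10 genes were found by symbol among 23617 symbols of the MDA-MB-231 table and 1854 of the HMLER table. They were chosen from the family with their FPKM values in these libraries already known, so their levels and ratios are a description and were not tested. The other 9 family members in the table are given beside them.

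MDA-MB-231 is a human breast cancer line with mesenchymal features. HMLER cells were obtained by transforming human mammary cells in culture, and their medium held EGF, hydrocortisone, puromycin and insulin. Treated cells of both lines received 10 µM DAC every day and were collected at 72 h, whereas untreated cells received none. The series holds 6 libraries, with 2 untreated and 2 DAC-treated for HMLER and 1 of each for MDA-MB-231, and each was made from pooled RNA extractions of its line. The title of the untreated MDA-MB-231 library gives that line, although its cell-line field carries another number. Levels were in FPKM, fragments scaled to transcript length and to the mapped fragments of a library, as the authors obtained them with Cuffdiff.

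The available values differ between the lines. For MDA-MB-231, each library had an FPKM with a lower and an upper bound from Cuffdiff. For HMLER, the table had 1 merged FPKM per condition, and it listed only transcripts that were at least 2-fold higher after DAC and reached 1 FPKM there, so a SOX gene outside it has no HMLER value here. There was no replicate check in either line, and FPKM of the 2 tables were scaled separately. Low values of MDA-MB-231 came in steps, each the worth of 1 read. All 818 low values checked in the untreated library were within 0.1 of a whole read, as were all 883 in the DAC library, and the worth of a read differed by a factor of 1.01 between them. Numbers of reads were therefore inferred for each SOX transcript, and their 95% intervals (exact Poisson) cover counting error only. The median DAC/untreated ratio of symbols at 1 FPKM or more in both libraries was 0.908, or -0.14 as a log2 value. Because these are bulk samples, fewer expressing cells and less RNA per cell cannot be told apart.

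Among markers of cell identity, the MDA-MB-231 libraries had VIM (vimentin) at 3066 and 1134 FPKM and the keratins KRT8 and KRT18 above 70 FPKM, while the basal keratins KRT5 and KRT14 were at most 0.0495 FPKM. The mesenchymal gene FN1 (fibronectin) was at 29.1 and 86.1 FPKM and ZEB1 at 14.8 and 9.11 FPKM. The luminal genes CDH1 and ESR1 were at 0 FPKM untreated and at 0.179 and 0.0150 FPKM after DAC, and EPCAM was at 7.90 and 9.78 FPKM. Of 3 endothelial markers, all were under 1 FPKM in both libraries, with a summed level of 0.0969 FPKM untreated and 0.432 FPKM after DAC. The 3 leukocyte markers summed to 0.198 and 0.375 FPKM. In HMLER, KRT5 was listed at 9.85 and 37.1 FPKM and KRT14 at 11.6 and 52.2 FPKM. The luminal gene EPCAM was listed there too, at 0.450 and 2.17 FPKM, and the basal marker TP63 was not listed.

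SOX proteins bind the minor groove of DNA through the HMG box, bend it, and act on genes together with partner factors. They are sorted into groups by similarity, and members of a group often share tissues and targets. SOX2 (group B1) maintains pluripotent and neural progenitor cells. SOX4 and SOX12 (group C) act in developing neural, pancreatic and lymphoid tissue. SOX13 belongs to group D, with SOX5 and SOX6 of cartilage. SOX8 and SOX9 (group E) act in gonad, neural crest and cartilage, and SOX9 also marks progenitor cells of the mammary epithelium. SOX7, SOX17 and SOX18 (group F) act in endothelium and endoderm, and SOX15 is the sole human gene of group G. Several SOX genes, SOX17 among them, are known from tumours as genes whose CpG islands become methylated.

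Because DAC acts at CpG dinucleotides, the promoter sequences of the members are shown where RefSeq entries were at hand (GRCh38.p14, from 250 bases before to 50 bases after the annotated start). Entries were used for 4 of the 10 members, SOX4, SOX13, SOX2 and SOX12, and those of SOX7, SOX8, SOX9, SOX15, SOX17 and SOX18 are missing from the table used. The 250 bases before the start are printed 5′ to 3′, with each CpG in capitals. They lie at chr6:21593501-21593750 for SOX4, chr1:204072865-204073114 for SOX13, chr3:181711675-181711924 for SOX2 and chr20:325302-325551 for SOX12, all on the plus strand.
SOX4: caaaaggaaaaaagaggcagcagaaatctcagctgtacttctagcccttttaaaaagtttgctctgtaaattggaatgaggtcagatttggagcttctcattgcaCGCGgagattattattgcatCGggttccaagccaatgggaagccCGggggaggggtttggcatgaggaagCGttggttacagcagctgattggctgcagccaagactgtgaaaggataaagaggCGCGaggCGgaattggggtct
SOX13: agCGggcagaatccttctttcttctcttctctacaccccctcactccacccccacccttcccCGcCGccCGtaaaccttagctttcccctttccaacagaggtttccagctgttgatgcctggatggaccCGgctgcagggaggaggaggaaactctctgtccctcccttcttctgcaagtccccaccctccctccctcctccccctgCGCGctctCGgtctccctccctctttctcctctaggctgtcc
SOX2: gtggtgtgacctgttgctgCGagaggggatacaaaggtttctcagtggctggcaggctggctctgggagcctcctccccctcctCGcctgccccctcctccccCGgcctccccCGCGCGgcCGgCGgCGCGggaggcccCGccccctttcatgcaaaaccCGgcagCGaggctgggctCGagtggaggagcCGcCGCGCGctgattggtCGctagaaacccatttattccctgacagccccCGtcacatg
SOX12: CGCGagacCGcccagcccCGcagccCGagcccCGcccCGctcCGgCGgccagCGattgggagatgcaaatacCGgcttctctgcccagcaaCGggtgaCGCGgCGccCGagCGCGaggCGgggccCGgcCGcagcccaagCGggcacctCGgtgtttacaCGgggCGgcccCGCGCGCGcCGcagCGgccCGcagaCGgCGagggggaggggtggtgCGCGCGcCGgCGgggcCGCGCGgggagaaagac

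In the full 300-base windows, SOX4 had 8 CpG, SOX13 had 15, SOX2 had 20 and SOX12 had 54. Over 35116 promoters of the same length the median was 14 and the quartiles were 4 and 28. At least as many CpG as in SOX12 were found in 0.464% of promoters, and as many as in SOX4 in 60.7%. The letters ACAAAG, a core sequence that SOX proteins can bind, were searched on both strands. SOX2 had 1 match and the windows of SOX4, SOX12 and SOX13 had none, where 16.1% of all promoters had at least 1. The letters AACAAT were found in none of the 4 windows and in 10.1% of all promoters. A match is a description of the letters and does not show binding. The window with the most CpG (SOX12) and the window with the fewest (SOX4) belonged to genes of the same group, whose levels after DAC are described below. No methylation values were used for these windows, and a relation of CpG number to the change after DAC was not tested.

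**Figure D1:**
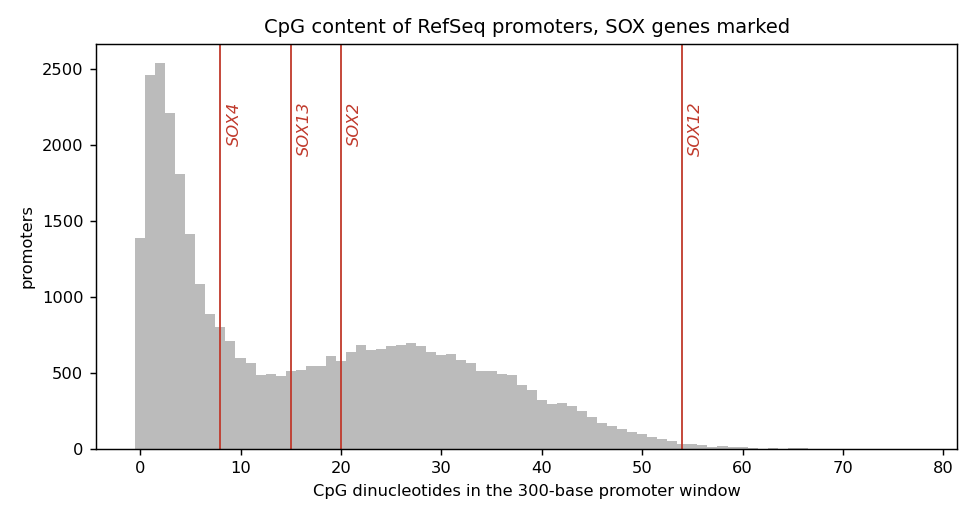
Number of RefSeq promoters (vertical axis) by the number of CpG dinucleotides in their 300-base window (horizontal axis), with the 4 SOX genes marked by lines. SOX4 at 8 and SOX12 at 54 CpG lie on either side of SOX13 at 15 and SOX2 at 20.

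In MDA-MB-231 cells, SOX4, SOX15 and SOX18 were more than 2-fold higher after DAC, 3 of the 10 genes, and none was more than 2-fold lower. A gene counted as higher or lower when its ratio passed 2-fold and it reached 1 FPKM in at least 1 library. Of all 12396 symbols that reached 1 FPKM, 11.5% were higher and 5.86% lower by this rule. Of the members, 6 reached 1 FPKM. SOX4 and SOX18 passed this filter only through the DAC library, so their being higher follows in part from the filter. The Cuffdiff bounds of the 2 libraries overlapped for all 10 members. Bounds that did not overlap were found for 1.44% of the 12396 symbols. Over all 10 genes the median log2 change was 0.21, beside 0 over all 23617 symbols, of which 5021 were at 0 in both libraries. Log2 changes were computed with 1 FPKM added to each value, which understates the change of low genes. The median of the 10 lay between the values of SOX2 and SOX17, which were under 1 FPKM in both libraries.

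**Figure D2:**
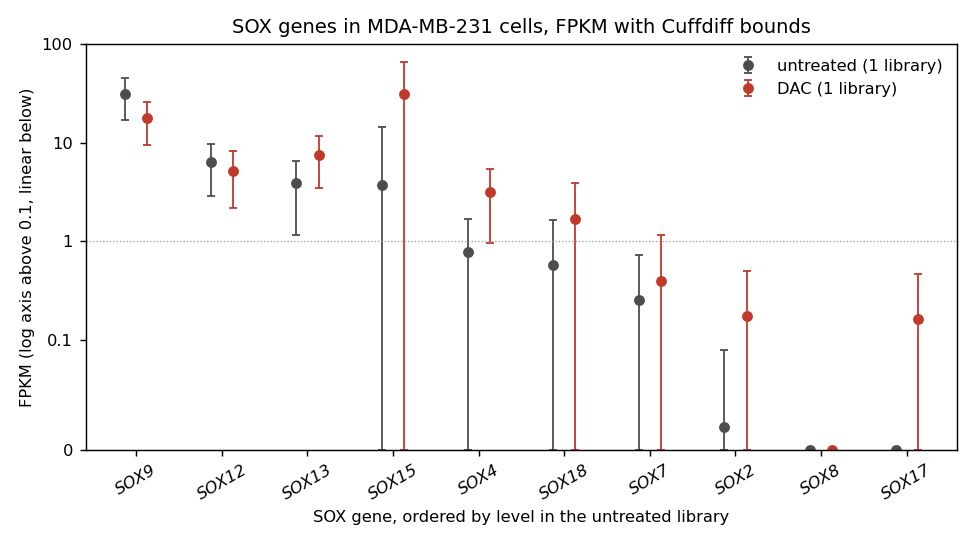
FPKM of the 10 SOX genes (vertical axis, logarithmic above 0.1 and linear below) in the untreated and the DAC-treated MDA-MB-231 library, with the bounds given by Cuffdiff as bars and 1 FPKM as a dotted line. Points of SOX15, SOX4 and SOX18 stand higher after DAC, that of SOX9 stands lower, and the bars of the 2 libraries overlap for every gene.

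SOX9 was the most abundant member in untreated cells. SOX9 (hg19, chromosome 17, 70117161 to 70122557, plus strand, 3 exons) was at 31.3 FPKM (bounds 17.2 to 45.5) in the untreated library and 17.8 FPKM (bounds 9.58 to 26.0) in the DAC library. The DAC level was 1.76-fold lower, short of the threshold, and the log2 change was -0.78. Read counts were about 4981 (interval 4844 to 5121) and 2813 (interval 2710 to 2919), so counting error was small beside the difference. Divided by the median ratio of all genes, the DAC/untreated ratio was 0.626. A lower log2 change was found in 7.57% of the symbols at 1 FPKM or more. SOX9 was not listed in HMLER. SOX8, the other group E member, was at 0 FPKM in both libraries. A floor of 3 reads for a count of 0, close to the exact Poisson upper limit of 3.69, corresponds to 0.0247 FPKM for SOX8 in the untreated and 0.0249 FPKM in the DAC library.

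The 2 group C members differed in level and in ratio. SOX4 (chromosome 6, 21593982 to 21598850, plus strand, a single exon) had 0.783 FPKM in the untreated MDA-MB-231 library, with bounds of 0 and 1.68. After DAC it had 3.19 FPKM, with bounds of 0.960 and 5.41, and was 4.07-fold higher. These levels correspond to about 156 (interval 132 to 182) and 631 (interval 583 to 682) reads. Its log2 change of 1.23 was exceeded by 4.87% of the symbols at 1 FPKM or more. SOX12 (chromosome 20, 306196 to 310868, plus strand, a single exon) was at 6.35 FPKM (bounds 2.89 to 9.80) and 5.22 FPKM (bounds 2.19 to 8.25). The ratio of 0.822 for SOX12 lay near the median ratio of all genes, 0.908. SOX12 was thus above SOX4 in both libraries, by point values, and the bounds of the pair overlapped after DAC. Neither gene was listed in HMLER.

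SOX13 (chromosome 1, 204042243 to 204096871, plus strand, 14 exons), the group D member known from T cell development, had 3.87 FPKM without treatment (bounds of 1.16 and 6.58) and 7.57 FPKM with it (bounds of 3.44 and 11.7). With a ratio of 1.96, about 638 against 1240 reads, SOX13 lay just under the 2-fold threshold. It passed after division by the median ratio, which gave 2.15. It was not listed in HMLER.

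The group F genes were low in MDA-MB-231. SOX18 (chromosome 20, 62678935 to 62680992, minus strand), a regulator of lymphatic and blood vessel endothelium, was at 0.578 FPKM (bounds 0 to 1.64) and 1.70 FPKM (bounds 0 to 3.89), 2.94-fold higher after DAC. These values rest on about 37 (interval 26.1 to 51.0) and 108 (interval 88.6 to 130.4) reads. SOX7 (chromosome 8, 10581278 to 10588021, minus strand) was at 0.257 FPKM (bounds 0 to 0.722) and 0.400 FPKM (bounds 0 to 1.16), or 33 and 51 reads. The SOX7 read ratio had an exact interval from 0.978 to 2.47, which covers counting error only. SOX17 (chromosome 8, 55370495 to 55373452, plus strand), an endoderm and endothelial factor that restrains Wnt signaling, had no read in the untreated and 15 reads (interval 8.40 to 24.7) in the DAC library. Its FPKM was 0 and 0.165 (bounds 0 to 0.467). Set against the floor of 3 reads, the DAC count of SOX17 was 5.0-fold higher. The exact interval of the read ratio, which also covers the error of the 15 reads, began at 3.59, and the level stayed under 1 FPKM. The summed endothelial markers, 0.0969 and 0.432 FPKM, were also higher after DAC, as were the summed leukocyte markers, 0.198 and 0.375 FPKM. On the list of 15 endothelial genes described below, 8 were higher and 6 lower after DAC at any fold. Over all symbols, 10358 were higher and 8238 lower, a similar division. Whether endothelial expression had a part in the group F values was not tested.

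In HMLER cells, SOX17 was listed with 1.01 FPKM untreated and 7.56 FPKM after DAC, a 7.46-fold ratio. The same transcript was therefore at 0 to 0.165 FPKM in one line and 1.01 to 7.56 FPKM in the other, on separately scaled tables. SOX7 and SOX18 were not listed in HMLER.

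SOX2 was near the detection limit. SOX2 (chromosome 3, 181429713 to 181432224, plus strand, a single exon) was at 0.0203 FPKM (bounds 0 to 0.0910) and 0.174 FPKM (bounds 0 to 0.498), which correspond to 2 and 17 reads. The ratio of reads was 8.50, with an exact interval from 2.02 to 75.9. The gene lies within the long noncoding RNA SOX2-OT, whose 6 transcripts summed to 0.0240 FPKM untreated and 0.0161 FPKM after DAC. SOX2 was not listed in HMLER.

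SOX15 had the largest log2 change of the members and, among those at 1 FPKM or more, was the only one past the threshold in both lines. SOX15 (chromosome 17, 7491496 to 7493412, minus strand, 2 exons), a gene of group G studied in muscle progenitors and placenta, had 3.77 FPKM in the untreated MDA-MB-231 library, with bounds of 0 and 14.5. After DAC it had 31.0 FPKM, with bounds of 0 and 66.2, and was 8.24-fold higher. The log2 change of 2.75 was exceeded by 0.758% of the symbols at 1 FPKM or more. The same transcript was listed in HMLER, where SOX15 was at 1.55 FPKM untreated and 22.3 FPKM after DAC, a 14.3-fold ratio. In MDA-MB-231, 3.80% of the 12396 symbols were both higher by the rule and listed in HMLER.

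The lower bound of SOX15 was 0 in both libraries, unlike those of SOX9, SOX12 and SOX13. SOX15 lies wholly within the annotated span of MPDU1, a gene of dolichol-linked glycosylation on the opposite strand (chromosome 17, 7486847 to 7496107, plus strand), over all 1917 bases. The table gives both genes a common locus, and how reads were divided between them was not tested. MPDU1, summed over its 2 transcripts, was at 122.1 FPKM untreated and 131.8 FPKM after DAC, a ratio of 1.08. SOX15 corresponded to 3.08% of the MPDU1 level untreated and 23.5% after DAC. The 2 genes overlap on opposite strands and strand was not stated to be used in counting, so the SOX15 level is uncertain in both lines. MPDU1 was not listed in HMLER.

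**Figure D3:**
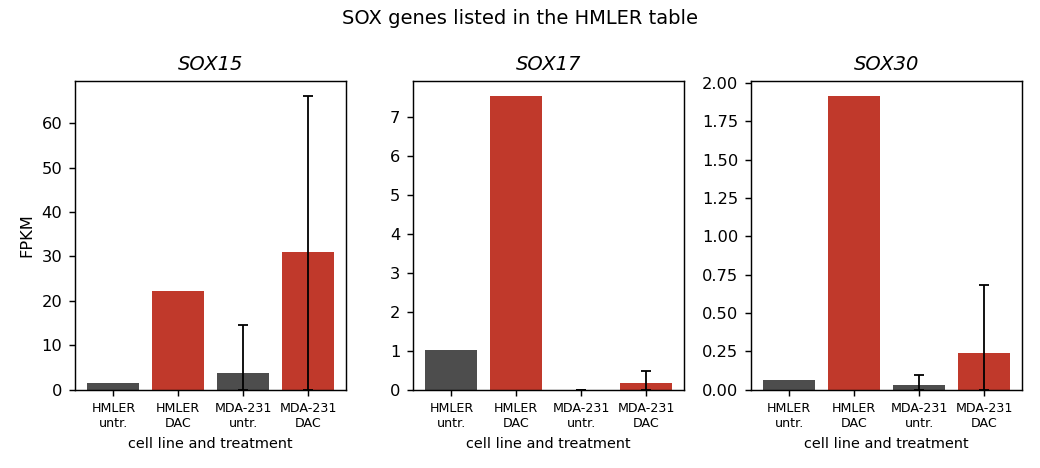
FPKM (vertical axes, separate for each gene) of the 3 SOX genes listed in the HMLER table, in untreated and DAC-treated HMLER cells (merged values with no error) and in the untreated and DAC-treated MDA-MB-231 library (bars of Cuffdiff bounds). DAC values stand above untreated values in both lines for SOX15, SOX17 and SOX30, and SOX15 alone among them exceeds 1 FPKM in MDA-MB-231.

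HMLER listed 2 of the 10 members, SOX15 and SOX17, where 7.85% of the MDA-MB-231 symbols were listed. From the rest of the family, SOX30 was listed too. SOX30 (hg19, chromosome 5, minus strand), a male germ cell factor of group H, had 0.0596 FPKM in HMLER cells without DAC and 1.92 FPKM with it, a 32.1-fold ratio from a low starting value. The same transcript of SOX30 had 4 and 31 reads in MDA-MB-231, at 0.0307 and 0.239 FPKM.

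The order of the members changed at the top. The 10 genes summed to 46.9 FPKM in the untreated and 67.2 FPKM in the DAC MDA-MB-231 library. SOX15, at 3.77 and 31.0 FPKM, rose by more than this sum did. Its level is uncertain because it overlaps MPDU1, and so are the sums and the shares below. Untreated, SOX9 made up 66.7% of the sum of the 10 genes, SOX12 13.5%, SOX13 8.24% and SOX15 8.02%. After DAC, SOX15 made up 46.1%, SOX9 26.5%, SOX13 11.3% and SOX12 7.76%. SOX4, SOX18, SOX7 and SOX2 held ranks 5 to 8 in both libraries. In the untreated library the bounds of SOX9 and SOX12 did not overlap, whereas those of the other 8 neighbouring pairs did. After DAC the bounds of all 9 neighbouring pairs overlapped, SOX15 and SOX9 included.

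**Figure D4:**
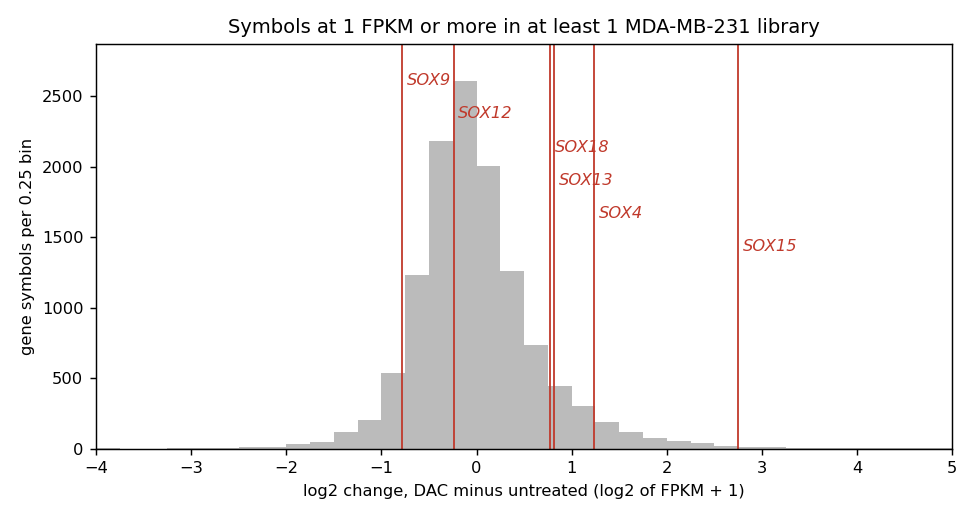
Histogram of log2 changes (horizontal axis, DAC minus untreated, with 1 FPKM added) over the MDA-MB-231 symbols that reached 1 FPKM in either library, with the number of symbols per bin on the vertical axis and the 6 SOX genes that reached this level as lines. SOX15 at 2.75 and SOX4 at 1.23 lie in the upper tail, SOX13 at 0.82 and SOX18 at 0.77 lie closer in, and SOX9 at -0.78 lies in the lower part.

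Most of the SOX family was under 1 FPKM in MDA-MB-231. Of its 19 genes in the table, 13 were under 1 FPKM in both libraries, of which 4 (SOX1, SOX8, SOX11 and SOX14) were at 0 in both. Of the other 9, the level was higher after DAC for 8 and lower for 1, SOX5. Among all symbols under 1 FPKM in both libraries with a value above 0, 80.9% were higher after DAC, so the SOX genes lay near this share. More than 2-fold higher were 6 of these 9 SOX genes and 3947 of the 6200 symbols with such low values above 0. Summed over the largest transcript of each of the 13 genes, about 98 reads were inferred in the untreated and 288 in the DAC library. Further transcripts, such as those of SOX6 and SOX30, are left out of these sums.

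Within these low genes, SOX10, the neural crest and glial factor of group E, had 1 read untreated and 40 reads after DAC (0.00883 and 0.355 FPKM), and the interval of its ratio ran from 6.78 to 1619. SOX21, of group B2, had 4 and 44 reads. SOX3, a neural progenitor factor of group B1, had 0 and 38 reads, and the exact interval of its read ratio began at 9.81. The Cuffdiff bounds of SOX3 after DAC were 0 and 1.37. SOX6 had 44 and 50 reads on its largest transcript, and its 4 transcripts summed to 0.119 and 0.242 FPKM. SOX5 had 10 and about 2 reads. Without the filter on low values, 5 of the 9 members above 0 (SOX2, SOX4, SOX15, SOX17 and SOX18) were more than 2-fold higher in MDA-MB-231. Of all symbols above 0 in at least 1 library, 28.9% were.

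**Figure D5:**
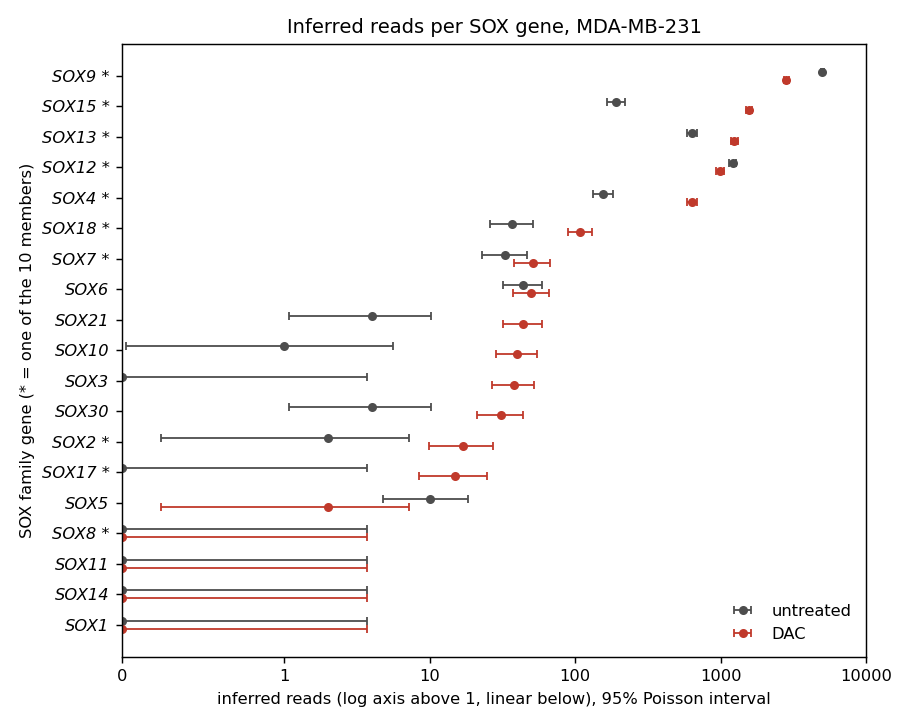
Inferred reads (horizontal axis, logarithmic above 1 and linear below) of the largest transcript of each of the 19 SOX genes. Shown are the untreated and the DAC-treated MDA-MB-231 library, with 95% Poisson intervals as bars, and stars mark the 10 members. SOX9 has the most reads in both libraries, and SOX1, SOX8, SOX11 and SOX14 have none. SOX10, SOX3 and SOX21 go from 4 reads or fewer to about 40. The intervals cover counting error only, and the reads of SOX15 are uncertain because it shares its locus with MPDU1.

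The list of other HMG-box genes holds the Wnt effectors of the TCF family and the HMGB chromatin proteins. Of its 21 genes, 20 reached 1 FPKM, 1 was more than 2-fold higher and none was lower, and their median log2 change was -0.12. The gene that passed was TCF7, at 0.497 FPKM (bounds 0 to 1.45) untreated and 4.58 FPKM (bounds 0.861 to 8.30) after DAC. This transcript reached 1 FPKM in the DAC library only. Summed over its 6 transcripts, TCF7 went from 1.29 to 7.43 FPKM. HMGB3 was at 10.7 and 6.39 FPKM and HMGB1 at 67.2 and 45.8 FPKM. TFAM was listed in HMLER, at 0.862 and 2.08 FPKM, through another transcript than its largest in MDA-MB-231.

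Genes that SOX factors are known to regulate, or that share their tissues, were examined as lists. Each count of genes past 2-fold is given over the list's genes at 1 FPKM or more, as are the shares of 11.5% higher and 5.86% lower over all symbols. On the cartilage list, 3 of 11 genes reached 1 FPKM, and all 3 were more than 2-fold higher after DAC. Of these, HAPLN1, a link protein of cartilage matrix, was at 0.0157 FPKM (bounds 0 to 0.0522) untreated and 2.12 FPKM (bounds 0.440 to 3.79) after DAC, and its bounds did not overlap. The collagen IX chain COL9A3 was at 0.0514 and 3.04 FPKM in MDA-MB-231 and at 4.32 and 10.8 FPKM in HMLER. COL9A2 was at 1.37 and 3.25 FPKM in MDA-MB-231 and at 0.989 and 5.86 FPKM in HMLER. HAPLN1 and COL9A3 passed the filter only through the DAC library. The median log2 change over the 11 genes was 0.09. COMP, another cartilage matrix gene, was listed in HMLER at 0.0887 and 1.35 FPKM, and had 0 and 0.0630 FPKM in MDA-MB-231.

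On the endothelial list, 6 of 15 genes reached 1 FPKM, of which DLL4 and KDR were more than 2-fold higher after DAC in MDA-MB-231, and both reached 1 FPKM in the DAC library only. The median log2 change over the 15 genes was 0.01, and HMLER listed 4. The Notch ligand DLL4 was at 0.0438 and 1.24 FPKM in MDA-MB-231 and at 0.175 and 1.30 FPKM in HMLER. In HMLER the receptor kinase TEK went from 0.0213 to 1.10 FPKM and TIE1 from 0.826 to 5.54 FPKM, while TIE1 was at 50.0 and 46.5 FPKM in MDA-MB-231. ROBO4 was 1.99-fold lower in MDA-MB-231 (19.2 and 9.62 FPKM, with overlapping bounds) and 3.68-fold higher in HMLER (2.06 and 7.60 FPKM). This contrast between the lines was not tested.

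On the neural crest and glial list, 6 of 12 genes reached 1 FPKM, of which MITF, ERBB3 and EDNRB were more than 2-fold higher after DAC in MDA-MB-231. ERBB3 and EDNRB reached 1 FPKM in the DAC library only. The median log2 change over the 12 genes was 0.30, and HMLER listed 4. MITF, the melanocyte master regulator, had 5.58 FPKM untreated (bounds of 2.35 and 8.81) and 12.6 FPKM after DAC (bounds of 6.30 and 19.0) in MDA-MB-231. In HMLER it was at 0.468 and 1.02 FPKM. ERBB3 was at 0.381 and 1.73 FPKM in MDA-MB-231 and at 1.20 and 3.0 FPKM in HMLER. EDNRB, the endothelin receptor of neural crest cells, was at 0.270 and 1.13 FPKM in MDA-MB-231, and the nerve growth factor receptor NGFR at 2.39 and 11.5 FPKM in HMLER. The melanocyte and glial markers TYR and S100B were at 0 in both MDA-MB-231 libraries, and the melanocyte marker MLANA was at 0.0533 FPKM untreated and 0 after DAC.

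On the list of SOX4 and SOX11 associated genes, 8 of 10 reached 1 FPKM, of which TMEFF2, TEAD2 and ANKRD1 were more than 2-fold higher after DAC in MDA-MB-231. TMEFF2 reached 1 FPKM in the DAC library only. HMLER listed 4, and the median log2 change over the 10 genes was 0.41. A further 2 were more than 2-fold lower in DAC-treated cells, TGFBR2 and, named after its value was seen, PRICKLE1. TMEFF2 was at 0.0146 and 2.37 FPKM in MDA-MB-231 and at 0.192 and 1.54 FPKM in HMLER. ANKRD1 was at 188.3 and 448.5 FPKM in MDA-MB-231 and at 0.597 and 88.9 FPKM in HMLER. TGFBR2, a TGF-beta receptor upstream of SOX4, was at 70.3 and 28.0 FPKM in MDA-MB-231. The call of TEAD2 rests on its largest transcript, since its 6 transcripts summed to 15.7 FPKM untreated and 15.3 FPKM after DAC. On the list of pluripotency partners of SOX2, 4 of 13 genes reached 1 FPKM, the median log2 change was 0.04, and POU2F1 alone passed, in the same way, with 0.00170 and 2.72 FPKM on its largest transcript and a sum of 2.49 and 2.74 FPKM. That transcript reached 1 FPKM in the DAC library only. HMLER listed none of these 13. KLF4 was at 18.6 and 13.6 FPKM and MYC at 95.6 and 95.5 FPKM in MDA-MB-231.

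On the mammary list of genes expressed with SOX9 or SOX10, 3 of 10 genes reached 1 FPKM and 1 of these passed in MDA-MB-231, the integrin ITGA6, with 44.6 FPKM untreated and a 2.22-fold lower 20.1 FPKM after DAC. The median log2 change of this list was 0.05. HMLER listed KRT14, KRT5, ALDH1A3 and SNAI2. SNAI2, which also stands on the neural crest list, was at 14.3 and 29.8 FPKM there, and ALDH1A3 was at 2.65 and 9.75 FPKM.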

How the data were processed

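RNA was sequenced from 2 human cell lines, untreated or treated with DAC. On a Galaxy server the authors aligned the reads with TopHat2 (hg19), then derived FPKM of each RefSeq transcript by Cuffdiff. Their versions are not given in the sources used here. The deposited FPKM of HMLER merge 2 libraries per condition, whereas those of MDA-MB-231 come from 1 library each. The authors' fold changes, p-values and q-values were not used.

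Each symbol was represented by its transcript of highest FPKM, untreated plus DAC. Ratios had no pseudocount, and log2 changes had 1 FPKM added. The FPKM worth of 1 read was found from transcripts longer than 2000 bases that are alone at their locus, with an effective length of the length minus 200 bases. Reads were obtained by dividing by this worth, with exact Poisson intervals. Read ratios have exact Clopper-Pearson intervals. The recovery of reads and the calls were tested on simulated data, with changes well past the threshold, little noise and transcripts alone at their locus. The calls were not tried on genes at low levels, nor the reads on shared loci. No test between conditions was run, since the members were chosen on these values and each condition of a line had only 1 value. The members and lists were chosen with earlier results of these data known. Named were all SOX genes, from each other list genes among the 4 with the largest log2 change in each line, and the 3 symbols nearest to SOX15 over 4 log2 values. Positions come from GENCODE lifted to GRCh37 (hg19), and promoters from RefSeq (GRCh38.p14), with no conversion between builds. As alternatives, the low-value filter, the pseudocount and the scaling (by the median ratio) were varied and transcripts were summed. Software was scipy 1.17.1, pandas 2.3.3, numpy 2.4.6 and matplotlib 3.10.9 under Python 3.11.15.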

Additional observations from a re-analysis of the deposited data

How the results depend on the processing

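No paired analysis was possible because merged HMLER values keep no library apart and the MDA-MB-231 conditions are single libraries. Leaving out a replicate was not possible either. The number of SOX genes more than 2-fold higher in MDA-MB-231 (3) was 5 with no filter on low values, with SOX2 and SOX17 added, and 1, SOX15, when 5 FPKM had to be reached. It was 2 with 1 FPKM added to the ratio, without SOX18, and 4 after division by the median ratio, with SOX13 added. The number higher in both lines (1, SOX15) was 2 with no filter, with SOX17 added, and 1 under the other alternatives run. None of the 10 genes was more than 2-fold lower under any of the 5 alternatives, but only lifting the filter could have added one. The 5 FPKM minimum and the added 1 FPKM can only remove such calls, and division by the median ratio raised the ratios. Each of the 10 genes had 1 transcript in MDA-MB-231, so summing changed nothing there. The number listed in HMLER stayed at 2 under both alternatives run on that table. With a pseudocount of 0.1, the log2 change of SOX17 in MDA-MB-231 went from 0.22 to 1.41 and that of SOX2 from 0.20 to 1.19, as the smaller pseudocount weighs low values more. Depth limits SOX2, SOX17, SOX8 and SOX7 most, since they rest on 51 reads or fewer per library.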

Other observations

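Over the 1852 other symbols with values in both tables, the genes whose 4 log2(FPKM + 1) values lay nearest to those of SOX15 were FST, HIST1H2BC and GPR137, at Euclidean distances of 0.29, 0.74 and 1.19. FST, which encodes the activin antagonist follistatin, was at 3.52 and 37.2 FPKM in untreated and DAC-treated MDA-MB-231 cells and at 1.36 and 21.9 FPKM in HMLER cells. HIST1H2BC, a histone H2B gene, was at 4.61 and 24.3 FPKM in MDA-MB-231 and at 2.61 and 17.3 FPKM in HMLER. The likeness is over 4 values, and the HMLER table lists only genes that were higher after DAC, so it says no more than that these levels lie close to each other.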
